A study of Drosophila melanogaster with 24 samples.

Results

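The odorant-binding protein (Obp) genes of Drosophila melanogaster were examined here in RNA from adult female heads. Members were all gene symbols in the count tables that start with Obp followed by a digit, which gave 51 genes of 17753. Of these, 29 lay on chromosome arm 2R, 12 on 3R, 6 on X, 2 on 2L and 2 on 3L. The choice used names only, and lush, a family member with another kind of symbol, was therefore not counted as a member.

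Obps are small secreted proteins that carry hydrophobic ligands through the fluid around chemosensory neurons. In antennae and taste organs they are made mostly by the support cells of a sensillum, not by the neurons, and several are also made by glia, fat body or reproductive tissue. Many lie in tandem clusters of related genes, and the number in each name gives the cytological position.

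The libraries came from an RNA immunoprecipitation (RIP) experiment on the RNA-binding proteins Nab2, a zinc-finger protein that binds polyadenosine RNA, and Atx2, the fly Ataxin-2. Each lysate pooled 300 heads, fixed in 1% formaldehyde, and the homogenate was strained and spun before use. Flies of 3 genotypes were used: elav>Gal4 alone (control), elav>Nab2-FLAG and elav>Atx2-3xFLAG, so all 3 carried the elav driver, which is active in neurons, and the tagged protein was made where that driver acts. From each of 4 lysates per genotype, 20% of the soluble volume was kept as Input and 80% went to anti-FLAG RIP, giving 24 libraries in 6 groups of 4. The labels number the lysates but do not say whether they came from separate crosses, so p-values measure the spread between these lysates. Flies of other ages or of the male sex were not analysed here.

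Total counts ran from 220894 to 2109561 per library, and the shallowest libraries were RIP replicate 3 of the control and of the Nab2 genotype. Levels are given as TMM-scaled CPM, the field's count unit relative to library size, with SD over 4 libraries, and differences are log2 values with SE from edgeR's quasi-likelihood fit, called at a Benjamini-Hochberg adjusted p below 0.05 over 6147 tested genes. Nab2 RNA was 122 ± 29.1 CPM in Nab2 Input and 24.6 ± 4.58 CPM in control Input (edgeR adjusted p = 7.11e-12), and did not overlap between them. Atx2 RNA was 249 to 295 CPM in Atx2 Input and 237 to 290 CPM in control Input (edgeR adjusted p = 0.678), so its level does not check the Atx2 labels. Photoreceptor, neuron, glia, fat body and muscle markers were all present, whereas the 5 olfactory organ markers (among them lush, Orco, a10 and Snmp1) summed to between 0 and 15.6 CPM per library and none passed the expression filter.

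Of all 17753 genes, 12431 had a count in the 24 libraries and 6147 passed the filter on low counts. Of the 51 Obp genes, 33 had a count and 12 passed the filter. Another 12 had over 3 counts in at least 1 library, and 27 never exceeded 3 counts in any library. Of these 27, 18 had no count at all in 23897491 counts over the 24 libraries, which allows up to 0.126 CPM for each. The 6 members Obp99c, Obp19d, Obp44a, Obp56d, Obp56e and Obp49a would have passed in each of the 6 groups alone. The other 6 (Obp99a, Obp57c, Obp18a, Obp56g, Obp19c and Obp57b) did not pass in control Input alone, so a count over the 12 tested members is not a count over the family.

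**Figure D1:**
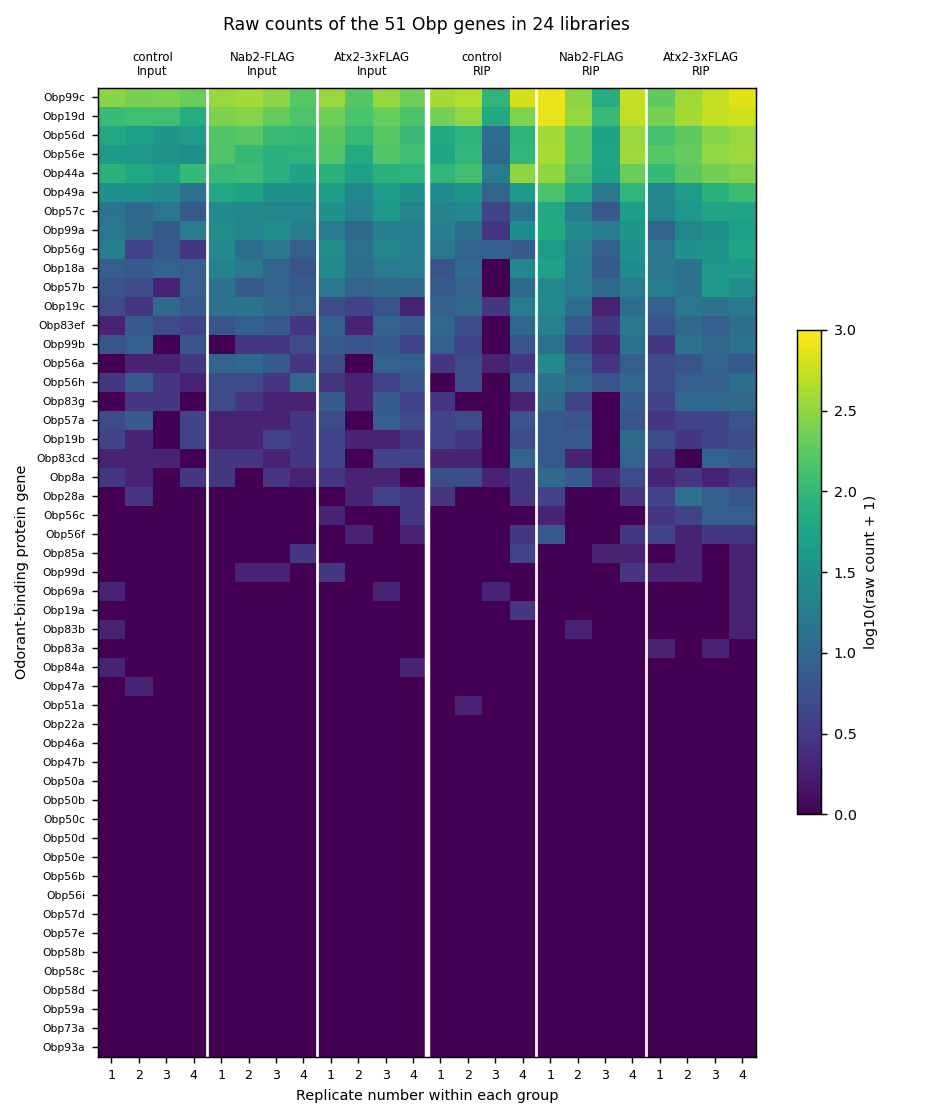
Heat map of raw counts, as log10(count + 1), of the 51 Obp genes (rows, by total) in the 24 libraries (columns, by group and replicate). The top 12 rows are the genes that passed the expression filter, and 27 genes never exceeded 3 counts in a library.

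The genes without counts included those best known from other tissues and sensilla. Obp57d and Obp57e, taste-hair genes known for a part in host choice, had no count, and neither did Obp59a, known from humidity-sensing sensilla, nor Obp22a, a seminal fluid protein. The classical antennal members were also at or near 0. Obp83a and Obp83b, made in trichoid sensilla of the antenna, had 2 and 3 counts in total, Obp84a had 2, Obp69a had 4 and Obp19a had 3. Their family member lush, needed for the response to the male pheromone, had 0 to 6 counts per library. Orco, the co-receptor of the odorant receptors, had 0 to 8 counts, and of 189 receptor genes listed (Or, Gr and Ir genes with Orco and the Snmp genes) none passed the filter, although 82 had a count. In a bulk head sample fewer cells of a type and less RNA per cell cannot be told apart.

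Obp19d, Obp99c, Obp44a and Obp56e were the leading members in control Input when levels were set per kilobase of gene span. The span is that of the RefSeq gene on Release 6 and includes introns, so a long gene such as Obp99c (3576 bases) is understated. Obp19d, a protein known from antennae and taste organs, had 127 ± 34.2 CPM per kilobase (SD, n = 4). Obp99c followed at 116 ± 18.0, Obp44a, known from brain glia, at 105 ± 30.3, and Obp56e at 101 ± 13.5 CPM per kilobase. Obp56d, known from antennae and taste organs, had 80.0 ± 11.3 CPM per kilobase. The ranges of these 5 genes overlapped from each to the next, so their order per kilobase of span was not resolved. In CPM not scaled by span, Obp99c had the highest mean in control Input, at 413, followed by Obp19d at 174. Obp49a, known from taste sensilla where it takes part in the suppression of sweet taste by bitter compounds, was next at 46.9 ± 15.3 CPM per kilobase, and its highest library (58.6) lay below the lowest of Obp56d (71.0). The remaining 6 tested members declined from a mean of 28.4 CPM per kilobase for Obp57c (range 16.4 to 44.2) to 7.68 for Obp57b (range 2.21 to 13.4), each overlapping the next.

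The order of means per kilobase of span differed in the tagged genotypes. Obp56e had the highest mean per kilobase in both, at 239 ± 55.5 in Nab2 Input and 256 ± 29.8 in Atx2 Input. In Nab2 Input its libraries overlapped with those of Obp19d (214 ± 8.49), so that lead was not resolved. In Atx2 Input its lowest library (213) lay above the highest of Obp56d (193). Obp99c and Obp44a were in the 4th and 5th places by mean per kilobase, at 88.7 ± 7.51 and 82.6 ± 13.0 in Atx2 Input. The 5 leading genes together made up 81.5% to 89.0% of all Obp counts in each library. Obp counts summed to 998 ± 96.7 CPM in control Input, 1332 ± 44.6 in Nab2 Input and 1153 ± 27.3 in Atx2 Input. Not scaled by span, Obp99c was the member with the most counts in every Input group. Its share of the summed Obp counts was 41.2% ± 2.41 in control Input, 29.2% ± 3.61 in Nab2 Input and 27.5% ± 1.76 in Atx2 Input.

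**Figure D2:**
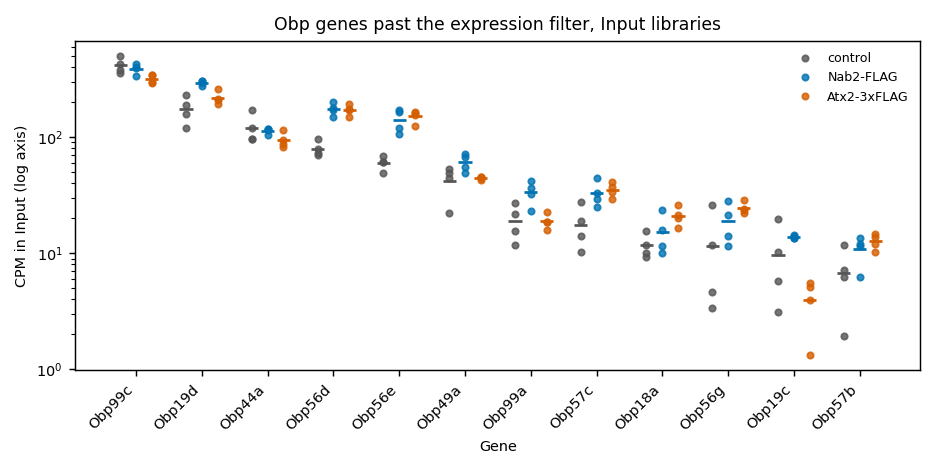
CPM on a log axis of the 12 tested Obp genes in Input, not scaled by length, with 1 point per library and a bar at the mean of each genotype. Obp56e has a mean of 59.6 CPM in control and of 141 and 151 CPM in Nab2 and Atx2, and Obp99c of 413, 388 and 317 CPM.

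Neighbours within a cluster differed widely in level. The 4 genes Obp19a to Obp19d lie within 5236 bases on X (Release 6, 20415744 to 20420979). Yet control Input held 174 ± 46.8 CPM of Obp19d, 9.65 ± 7.22 CPM of Obp19c and a mean of 2.74 CPM of Obp19b, while Obp19a never exceeded 3 counts. Obp19c ends 648 bases before Obp19d. The 9 genes Obp56a to Obp56i span 170992 bases of 2R (19697723 to 19868714), and only Obp56d, Obp56e and Obp56g of them passed the filter. Obp57c (2R, 20503584 to 20504202) and Obp57b lie 48 bases apart and both passed, while Obp57e and Obp57d farther along had no count. Whether counting used strand is unknown here, so overlapping genes may share reads. Obp44a overlaps Pabp2 by 205 bases and Obp99c overlaps Gycalpha99B by 23 bases, and the antisense RNA that overlaps Obp56e by 505 bases never exceeded 2 counts.

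Obp56d and Obp56e were the members with the clearest difference between genotypes, and both were higher in Input of each tagged genotype than in control Input. Obp56d (2R, 19702924 to 19703915) stood at 95.2, 78.9, 70.4 and 72.8 CPM in the 4 control Input libraries. It stood at 170, 178, 148 and 202 CPM in Nab2 Input and at 175, 192, 172 and 148 CPM in Atx2 Input. Every tagged library was above every control library. The log2 difference was 1.12 ± 0.14 for Nab2 against control (2.17-fold, edgeR adjusted p = 7.54e-08) and 1.09 ± 0.14 for Atx2 against control (2.13-fold, edgeR adjusted p = 5.57e-08). Both comparisons use the same 4 control libraries, so they are not independent.

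Obp56e (2R, 19712345 to 19712932), a related gene 8429 bases away whose product has been found in seminal fluid, showed the same pattern. Control Input held 60.6, 60.3, 68.4 and 49.1 CPM, Nab2 Input 165, 106, 120 and 172 CPM, and Atx2 Input 154, 125, 160 and 164 CPM. No tagged library overlapped a control library. The log2 difference was 1.22 ± 0.17 for Nab2 (2.34-fold, edgeR adjusted p = 2.56e-07) and 1.35 ± 0.16 for Atx2 (2.55-fold, edgeR adjusted p = 9.34e-09). Nab2 and Atx2 Input did not differ past the threshold for either gene (log2 0.02 ± 0.13 for Obp56d and -0.13 ± 0.14 for Obp56e).

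Obp19d (X, 20419613 to 20420979) was higher in Nab2 Input, and its Atx2 value lay near the threshold. It had 157, 187, 231 and 120 CPM in control Input, 290, 301, 277 and 301 CPM in Nab2 Input, and 212, 260, 208 and 192 CPM in Atx2 Input. The Nab2 libraries lay above all control and all Atx2 libraries, while Atx2 and control overlapped. The log2 difference from control was 0.76 ± 0.13 for Nab2 (1.69-fold, edgeR adjusted p = 4.16e-05) and 0.32 ± 0.13 for Atx2 (edgeR adjusted p = 0.0968). The Atx2 value passed the threshold with library sizes alone (0.59, edgeR adjusted p = 0.00169), without control replicate 3 (0.47, edgeR adjusted p = 0.0123) and without the lysates of the 2 shallowest libraries (0.48, edgeR adjusted p = 0.0149). Nab2 exceeded Atx2 by 0.43 ± 0.13 (edgeR adjusted p = 0.0378), a call lost when library sizes alone were used, with DESeq2 and without any of 8 single replicates.

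Obp57c, known from taste organs, was also higher in both tagged genotypes. Alone it would have passed the filter in every tagged group and in no control group, so its entry into the test depended on groups in which it was higher. Control Input held 18.8, 13.9, 27.4 and 10.2 CPM, Nab2 Input 29.2, 25.1, 33.0 and 44.4 CPM, and Atx2 Input 33.7, 36.8, 41.1 and 29.3 CPM. The Atx2 libraries were all above control, whereas 1 Nab2 library (25.1) lay below the highest control library. The log2 difference was 1.03 ± 0.28 for Atx2 (edgeR adjusted p = 0.00573) and 0.87 ± 0.28 for Nab2 (edgeR adjusted p = 0.033). The Nab2 call was lost with DESeq2 (adjusted p = 0.0791) and without any of 6 single replicates (edgeR adjusted p from 0.0508 to 0.125).

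Obp99c (3R, 29685736 to 29689311) was lower in Atx2 Input. Its 4 control Input libraries held 421, 376, 501 and 356 CPM, the Nab2 Input libraries 389, 400, 427 and 335 CPM, and the Atx2 Input libraries 338, 298, 343 and 290 CPM. The Atx2 libraries lay below all control libraries and the Nab2 libraries overlapped them. The log2 difference for Atx2 was -0.37 ± 0.11 (edgeR adjusted p = 0.0154), and for Nab2 -0.08 ± 0.11 (edgeR adjusted p = 0.723). The Atx2 call was lost with library sizes alone (log2 -0.11, where the median of all genes moved to 0.24), without control replicate 3 (-0.28, edgeR adjusted p = 0.109) and without Atx2 replicate 2 (-0.35, edgeR adjusted p = 0.0526).

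Over the 12 tested members, 4 were higher and 0 lower in Nab2 Input than in control Input, where 7.35% of all tested genes were called higher and 4.85% lower. In Atx2 Input 4 were higher and 1 lower, where 8.91% of all tested genes were called higher and 7.63% lower. The 6 members that did not pass the filter in control Input alone passed only in tagged groups. In most of these groups they were higher, so counts over all 12 lean to higher calls by that choice. The filter also follows sequencing depth. Obp99a passed in Atx2 Input at a mean of 27.8 CPM per kilobase, where control Input had 28.0. Of the 6 members that passed the filter in every group, 3 were higher and 0 lower in Nab2 Input, with a median log2 difference of 0.64 where that of all tested genes was -0.02. In Atx2 Input 2 of these 6 were higher and 1 lower, with a median of 0.20 where that of all tested genes was -0.01. With library sizes alone 6 members were higher and 0 lower in each comparison, where all genes split into 663 higher and 107 lower for Nab2 (452 and 298 with TMM) and 1043 and 169 for Atx2 (548 and 469 with TMM). Without the lysates of the 2 shallowest libraries 4 members were higher and 0 lower in each. Of 6463 genes tested there, 352 were higher and 195 lower for Nab2, and 458 and 348 for Atx2. Obp99c in Atx2 Input was then at -0.27 (edgeR adjusted p = 0.127). The 4th gene higher in Atx2 Input was Obp56g, at 26.0, 4.64, 11.7 and 3.39 CPM in control Input and 22.1 to 28.8 CPM in the 4 Atx2 Input libraries. Its groups overlapped, and its log2 difference of 1.07 ± 0.38 (edgeR adjusted p = 0.0491) was not called under 11 of 18 alternatives.

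**Figure D3:**
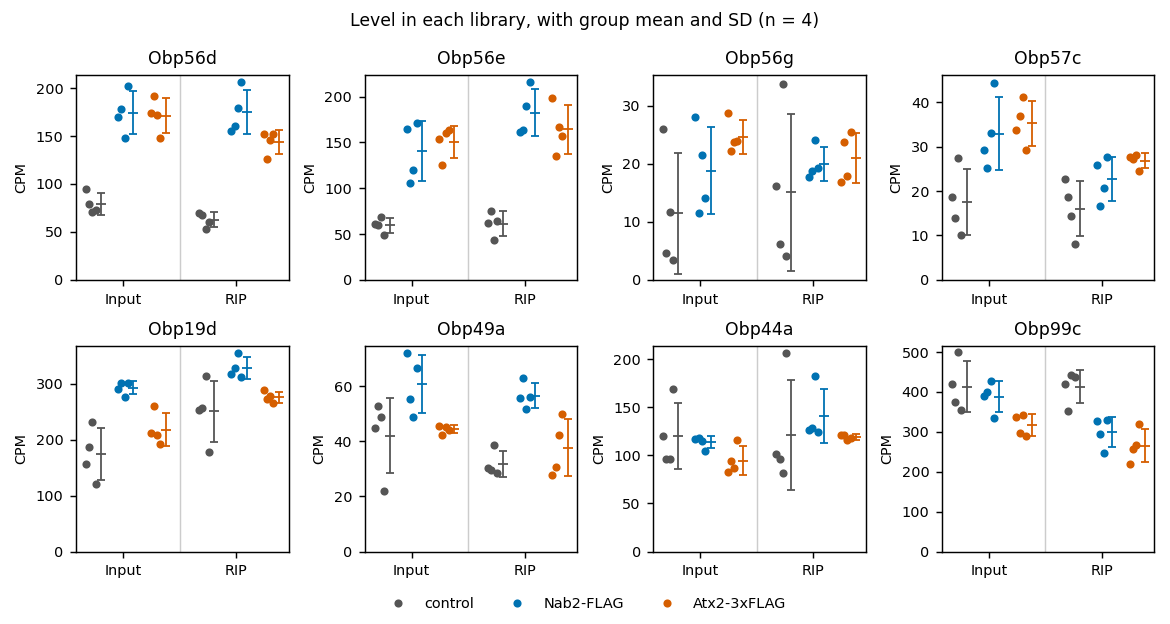
CPM of 8 Obp genes in each library of Input and RIP, with the mean and SD of each group (n = 4). In both Input and RIP, every Nab2 and Atx2 library of Obp56d and Obp56e lies above every control library.

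Between the tagged genotypes, 2 members were higher in Nab2 than in Atx2 Input and 0 lower, where 2.62% of all tested genes were called higher and 1.64% lower. These were Obp19d and its neighbour Obp19c. Alone, Obp19c would have passed the filter in Nab2 Input and Atx2 RIP only, so its entry into the test depended on the group in which it was higher. Of the 6 members that passed in every group, 1 was higher and 0 lower. Obp19c had 13.5, 13.6, 14.3 and 14.1 CPM in Nab2 Input and 3.97, 5.53, 5.14 and 1.33 CPM in Atx2 Input, with no overlap. Control Input ranged over 3.09 to 19.6 CPM and covered both. The log2 difference between Nab2 and Atx2 was 1.76 ± 0.47 (edgeR adjusted p = 0.0189), and the call was lost without any of 4 single replicates (edgeR adjusted p from 0.0513 to 0.0796). No other member passed in Input with all lysates. Obp56g in Nab2 Input had a log2 difference of 0.68 ± 0.40 (edgeR adjusted p = 0.33), which became 1.57 (edgeR adjusted p = 0.0206) without control replicate 1, its highest control library. Obp99a, at 32.6, 23.0, 41.6 and 36.3 CPM in Nab2 Input and 21.6, 15.5, 11.7 and 27.1 CPM in control Input, had a log2 difference of 0.76 ± 0.28 (edgeR adjusted p = 0.0686). It passed without control replicate 4 (0.96, edgeR adjusted p = 0.0277), without Nab2 replicate 2 (0.92, edgeR adjusted p = 0.0331) and with library sizes alone (0.93, edgeR adjusted p = 0.0272). Obp49a differed by 0.52 ± 0.20 (edgeR adjusted p = 0.0906) for Nab2, and by 0.71 (edgeR adjusted p = 0.0196) with library sizes alone. Obp18a, at 10.1, 9.28, 15.6 and 11.9 CPM in control Input and 25.8, 20.3, 16.5 and 21.3 CPM in Atx2 Input, did not overlap but missed the threshold (0.86 ± 0.34, edgeR adjusted p = 0.0756), which it passed with library sizes alone (1.11, edgeR adjusted p = 0.0152). Obp44a was 120 ± 34.7 CPM in control, 114 ± 5.99 in Nab2 and 94.6 ± 14.9 in Atx2 Input (-0.36 ± 0.16 for Atx2, edgeR adjusted p = 0.118), with -0.47 (edgeR adjusted p = 0.0486) without Atx2 replicate 4. Obp57b differed by 0.60 ± 0.45 for Nab2 and 0.84 ± 0.44 for Atx2.

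Summed levels of cell type markers differed with genotype as well, although in several lists single members went the other way. The summed level of 6 muscle markers was 1786 to 2553 CPM in control Input, 3802 to 4845 in Nab2 Input and 3670 to 3865 in Atx2 Input, without overlap between tagged and control libraries, and 4 of the 5 tested muscle markers were called higher in each tagged genotype. In RIP the muscle sum was 2242 to 3075 CPM in control, 4333 to 5479 in Nab2 and 3739 to 4333 in Atx2. The 8 glia markers summed to 1262 to 1628 CPM in control Input, 1902 to 1950 in Nab2 Input and 1537 to 1690 in Atx2 Input. The 8 fat body markers summed to 109553 to 147113 CPM in control Input, 101802 to 124682 in Nab2 Input and 72622 to 80271 in Atx2 Input. In RIP the fat body sum was 88445 to 123083 CPM in control, 91616 to 95935 in Nab2 and 56279 to 75548 in Atx2. Of 7 tested fat body markers, 3 were called higher and 0 lower in Nab2 Input, and 1 higher and 3 lower in Atx2 Input. The RIP calls were 3 higher and 2 lower for Nab2, and 2 higher and 4 lower for Atx2. In RIP the glia sum was 1213 to 1628 CPM in control, 1811 to 1909 in Nab2 and 1431 to 1614 in Atx2, so Nab2 did not overlap control in either fraction. Of the 8 glia markers, 3 were called higher and 0 lower in Nab2 Input, and 0 either way in Atx2 Input. The RIP calls were 3 higher and 1 lower for Nab2, and 2 higher and 1 lower for Atx2. Photoreceptor markers, 6 genes, summed to 70048 to 103363 CPM in control Input and to at most 58954 in either tagged genotype, and in RIP to 56981 to 71514 CPM in control and to at most 38979 in either tagged genotype. Of these 6, 1 was called higher and 3 lower in Nab2 Input, and 0 higher and 3 lower in Atx2 Input. The RIP calls were 1 higher and 4 lower for Nab2, and 0 higher and 3 lower for Atx2. The 7 neuron markers summed to 1519 to 1904 CPM in control, 1465 to 1623 in Nab2 and 1628 to 2081 in Atx2 Input, and to 1787 to 1931, 1850 to 2072 and 2126 to 2841 CPM in RIP, where Atx2 did not overlap control. Of these 7, 3 were called higher in Atx2 Input and 4 in Atx2 RIP, and 0 lower in either. For Nab2, 0 were higher and 1 lower in Input, and 1 was higher and 1 lower in RIP. Over all tested genes, 7.35% were higher and 4.85% lower in Nab2 Input, and 8.91% and 7.63% in Atx2 Input. In RIP these shares were 10.7% and 9.29% for Nab2, and 12.1% and 12.1% for Atx2. The part of these shifts in the Obp differences, Input or RIP, was not tested. The olfactory organ markers stayed at or below 15.6 CPM in all 24 libraries.

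In RIP libraries Obp56d and Obp56e again had the smallest adjusted p among the members. Obp56d had 70.0, 67.9, 53.0 and 60.4 CPM in control RIP, 155, 160, 179 and 207 CPM in Nab2 RIP, and 152, 126, 146 and 152 CPM in Atx2 RIP. Obp56e had 62.4, 75.7, 43.4 and 64.5 CPM in control RIP, 161, 163, 190 and 216 CPM in Nab2 RIP, and 199, 135, 167 and 157 CPM in Atx2 RIP. All tagged libraries were above all control libraries for both genes. For Nab2 against control the log2 differences were 1.41 ± 0.13 (edgeR adjusted p = 6.88e-11) and 1.45 ± 0.14 (edgeR adjusted p = 1.97e-10). For Atx2 they were 1.12 ± 0.13 (edgeR adjusted p = 5.38e-09) and 1.27 ± 0.14 (edgeR adjusted p = 1.47e-09). RIP and Input libraries come from the same lysates, so these values repeat the genotype difference in another fraction of the same material and are not a second experiment.

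In the Nab2 RIP comparison 6 of the 12 tested members were higher and 1 lower, where 10.7% of all tested genes were called higher and 9.29% lower. Of the 6 that passed the filter in every group, 4 were higher and 1 lower, with a median log2 difference of 0.67 where that of all genes was -0.01. The other 2 higher calls, Obp99a and Obp56g, were of genes that passed in no control group alone. Scaled by library size only, 9 members were higher and 0 lower, where all genes split into 979 higher and 270 lower (656 and 571 with TMM). Besides the Obp56 genes, Obp49a rose from 30.1, 29.7, 38.5 and 28.5 CPM in control RIP to 55.7, 62.9, 51.7 and 56.0 CPM in Nab2 RIP, without overlap (0.91 ± 0.19, edgeR adjusted p = 0.00035). Obp19d was 250 ± 55.2 CPM in control RIP and 328 ± 19.4 in Nab2 RIP, with overlap at the highest control library of 313 (0.42 ± 0.11, edgeR adjusted p = 0.00606). Obp99a was 14.2 ± 5.84 CPM in control RIP and 33.4 ± 17.0 in Nab2 RIP (0.85 ± 0.29, edgeR adjusted p = 0.0304). The Obp99a call was lost without control replicate 2 (0.60, edgeR adjusted p = 0.173), Nab2 replicate 1 (0.93, edgeR adjusted p = 0.0525) or Nab2 replicate 3 (0.72, edgeR adjusted p = 0.0634). Without Nab2 replicate 1 the value itself rose, so that loss does not show a call resting on that lysate. Obp56g overlapped between the groups (0.95 ± 0.35, edgeR adjusted p = 0.0494), and its call was lost under 10 of 18 alternatives.

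In the Atx2 RIP comparison 5 members were higher and 1 lower, where 12.1% of all tested genes were called higher and 12.1% lower. Of the 6 that passed the filter in every group, 2 were higher and 1 lower, with a median of 0.27 where that of all genes was -0.03. The other 3 higher calls were Obp57b, Obp57c and Obp56g, which passed in no control group alone, so their entry into the test depended on the groups in which they were higher. Scaled by library size only, 8 were higher and 1 lower, where all genes split into 1338 higher and 297 lower (741 and 741 with TMM). Without the lysates of the 2 shallowest libraries 5 members were higher and 1 lower in each RIP comparison with control. Of 6463 genes tested there, 663 were higher and 491 lower for Nab2, and 804 and 648 for Atx2. Obp57b had 6.46, 6.24, 0 and 6.79 CPM in control RIP and 20.5, 9.08, 20.4 and 13.1 CPM in Atx2 RIP (1.29 ± 0.37, edgeR adjusted p = 0.00962). The values did not overlap, but the 0 came from control RIP replicate 3, the shallowest library. There 3 counts amount to 14.5 CPM, above the Atx2 values of 9.08 and 13.1, so that library cannot show a separation. Alone, Obp57b would have passed the filter in Nab2 RIP and Atx2 RIP and in no other group. Without Atx2 replicate 3 the call was lost (1.10, edgeR adjusted p = 0.0552). Its neighbour Obp57c had 22.6, 18.7, 14.5 and 8.15 CPM in control RIP and 27.7, 27.2, 28.0 and 24.5 CPM in Atx2 RIP (0.74 ± 0.25, edgeR adjusted p = 0.0274). The Obp57c call was lost without control replicate 4 (0.42, edgeR adjusted p = 0.245), without Atx2 replicate 3 (0.72, edgeR adjusted p = 0.0624) and with DESeq2 (adjusted p = 0.0679). Obp56g was 15.0 ± 13.5 CPM in control RIP and 21.0 ± 4.25 in Atx2 RIP, with overlap (1.12 ± 0.33, edgeR adjusted p = 0.0118). The Obp56g call was lost without control replicate 2 (0.92, edgeR adjusted p = 0.0729), without control replicate 4 (0.74, edgeR adjusted p = 0.109) and with DESeq2 (adjusted p = 0.0736).

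For other members the call in RIP turned on the lysates included and on the scaling. Obp18a had 5.38, 7.80, 0 and 16.3 CPM in control RIP and 16.3 to 20.7 CPM in Nab2 RIP (0.89 ± 0.34, edgeR adjusted p = 0.0571). Without control replicate 4 its value was 1.58 for Nab2 (edgeR adjusted p = 0.00362) and 1.37 for Atx2 (edgeR adjusted p = 0.00993), where all lysates gave 0.68 ± 0.33 for Atx2 (edgeR adjusted p = 0.139). Obp57b in Nab2 RIP was at 1.02 ± 0.40 (edgeR adjusted p = 0.0658), and at 1.25 (edgeR adjusted p = 0.049) without Nab2 replicate 1. Obp57c in Nab2 RIP was at 0.60 ± 0.26 (edgeR adjusted p = 0.103), and at 0.86 (edgeR adjusted p = 0.0367) without control replicate 1. With library sizes alone, which moved the median of all genes to 0.13 for Nab2 and 0.18 for Atx2, each of these was called. Obp18a was then at 1.04 for Nab2 (edgeR adjusted p = 0.02) and 0.89 for Atx2 (edgeR adjusted p = 0.0385). In Nab2 RIP Obp57b was at 1.18 (edgeR adjusted p = 0.0303) and Obp57c at 0.74 (edgeR adjusted p = 0.0458). Without the expression filter Obp18a in Nab2 RIP was at 0.92 (edgeR adjusted p = 0.0344).

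Obp99c was the member that was lower in RIP of both tagged genotypes. It had 419, 353, 443 and 437 CPM in control RIP, 326, 296, 248 and 331 CPM in Nab2 RIP, and 219, 257, 267 and 319 CPM in Atx2 RIP. No tagged library reached the lowest control library. The log2 difference was -0.43 ± 0.11 for Nab2 (edgeR adjusted p = 0.00415) and -0.64 ± 0.11 for Atx2 (edgeR adjusted p = 1.52e-05). With library sizes alone, which moved the median of all genes to 0.13, the Nab2 value was -0.27 (edgeR adjusted p = 0.0785).

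Obp44a varied between the control lysates. Control RIP held 101, 96.8, 81.9 and 206 CPM, and control Input 120, 95.9, 95.8 and 169 CPM, with replicate 4 the highest in both. Nab2 RIP held 127, 129, 183 and 125 CPM, and Atx2 RIP 122, 122, 116 and 118 CPM. The log2 difference for Nab2 RIP against control was -0.00 ± 0.24 with all lysates. Without control replicate 4 it was 0.47 (edgeR adjusted p = 0.0112).

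Between the tagged genotypes in RIP, 1 member was higher in Nab2 than in Atx2, where 2.44% of all tested genes were called higher and 1.90% lower, and 0 members were lower. This was Obp49a, at 51.7 to 62.9 CPM in Nab2 RIP and at 27.7, 30.7, 42.3 and 49.9 CPM in Atx2 RIP. The log2 difference was 0.55 ± 0.16 (edgeR adjusted p = 0.04), and the call was lost under 8 of 18 alternatives, 6 of which left out 1 replicate of a tagged genotype.

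**Figure D4:**
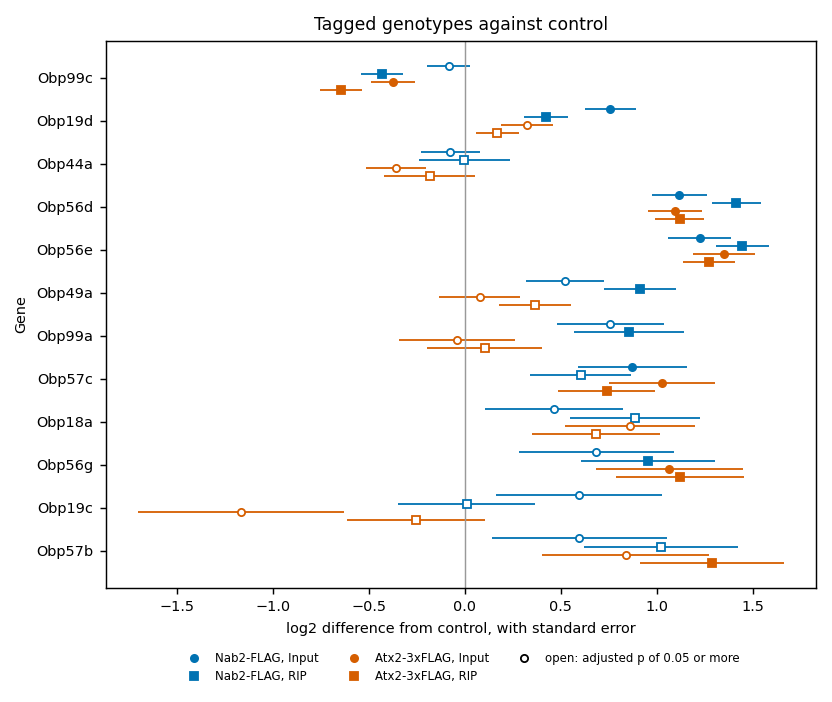
Log2 difference of each of the 12 tested Obp genes between tagged and control libraries, in Input (circles) and RIP (squares), with bars of 1 SE and filled points for an edgeR adjusted p below 0.05. Obp56d and Obp56e lie above 1 in all 4 comparisons, and Obp99c lies below 0 in all 4, with 3 of these called, although with library sizes alone its Nab2 Input value is 0.10.

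RIP recovery was then read as the log2 ratio of RIP to Input within a lysate. Obp19d was the member called above its Input level. In the 4 control lysates, which hold no tagged protein, its ratio was 0.67, 0.45, 0.44 and 0.56, a mean of 0.53 ± 0.11 (SD, n = 4). In Atx2 lysates it was 0.44, 0.07, 0.41 and 0.46, and in Nab2 lysates 0.13, 0.12, 0.36 and 0.05. Every lysate was above 0, and each Nab2 lysate lay below each control lysate. The fitted RIP-to-Input difference was 0.54 ± 0.10 in control (edgeR adjusted p = 6.61e-05), 0.35 ± 0.09 in Atx2 (edgeR adjusted p = 0.0042) and 0.15 ± 0.09 in Nab2 (edgeR adjusted p = 0.346). The Atx2 call was lost without Atx2 replicate 3 (0.31, edgeR adjusted p = 0.087) and when the lysate was left out of the model (adjusted p = 0.0909). With library sizes alone, which moved the median of all genes to 0.39 in control and 0.37 in both tagged genotypes, Obp19d was called in all 3, at 0.96, 0.54 (edgeR adjusted p = 2.4e-05) and 0.73 in control, Nab2 and Atx2. With that scaling 4 members were higher and 0 lower in each genotype, where all genes split into 1931 higher and 45 lower in control, 1787 and 22 in Nab2, and 2066 and 25 in Atx2. RIP and Input libraries were pooled and sequenced separately, so the fraction and the sequencing pool cannot be told apart in this ratio.

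In each genotype 1 of the 12 tested members was called in this RIP-to-Input comparison. The control and Atx2 calls were Obp19d, higher, where 3.01% and 4.00% of all tested genes were called higher, and 4.42% and 3.76% lower. The Nab2 call was Obp99c, lower, where 4.41% of all tested genes were called lower and 3.42% higher. Obp99c had ratios of -0.25, -0.43, -0.78 and -0.02 in Nab2 lysates, -0.62, -0.21, -0.35 and 0.13 in Atx2 lysates, and -0.01, -0.09, -0.18 and 0.30 in control lysates. All 4 Nab2 lysates were below 0, but they overlapped with control. The fitted value in Nab2 was -0.34 ± 0.10 (edgeR adjusted p = 0.0231), and it was lost without Nab2 replicate 1 (-0.37, edgeR adjusted p = 0.0899), Nab2 replicate 2 (-0.31, edgeR adjusted p = 0.168), Nab2 replicate 3 (-0.24, edgeR adjusted p = 0.189) or Atx2 replicate 2 (-0.33, edgeR adjusted p = 0.051). With library sizes alone it was 0.04, where the median of all genes moved to 0.37. Obp56e in Nab2 lysates, at 0.34 ± 0.12, just missed the threshold (edgeR adjusted p = 0.0508).

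**Figure D5:**
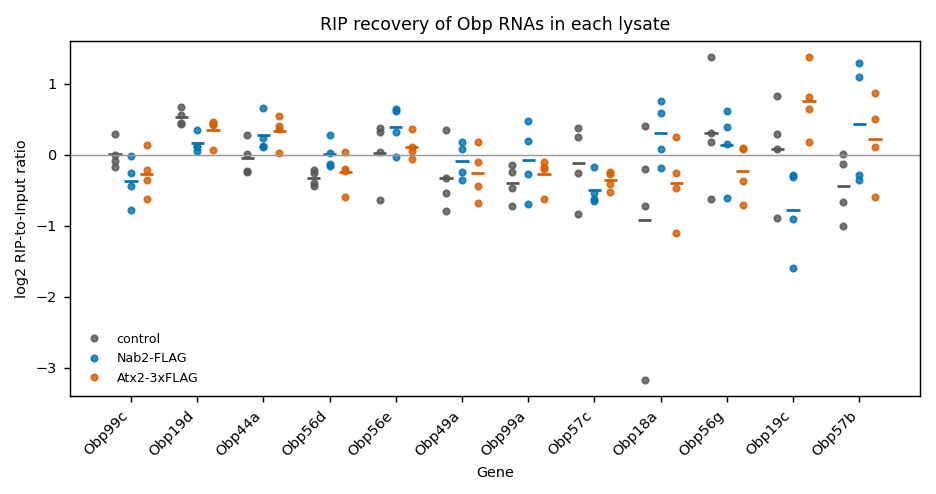
Log2 ratio of RIP to Input CPM of the 12 tested Obp genes, with 1 point per lysate and a bar at the mean of each genotype. Obp19d is above 0 in all 12 lysates, with means of 0.53 in control, 0.16 in Nab2 and 0.35 in Atx2, and the low control point of Obp18a (-3.17) is the lysate whose RIP library had no count.

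Tagged-protein association was tested as the difference of these ratios from control. For Nab2, 0 of the 12 members passed, where 0.0976% of all tested genes were called higher and 0% lower, and 2 had an unadjusted p under 0.05. These were Obp19d (-0.39 ± 0.13, edgeR adjusted p = 0.345) and Obp99c (-0.36 ± 0.14, edgeR adjusted p = 0.509), both with a lower ratio in Nab2 than in control lysates. For Atx2, 0 passed, where 0.0488% of all tested genes were called higher, and 0 had an unadjusted p under 0.05. For Nab2 against Atx2, 0 passed, where 0% of all tested genes were called, and 1 had an unadjusted p under 0.05. That member was Obp19c, with ratios from -1.59 to -0.29 in Nab2 lysates and from 0.18 to 1.38 in Atx2 lysates (-1.56 ± 0.61, edgeR adjusted p = 1). DESeq2 also called 0 members in each of the 3. Obp56d and Obp56e, which differed between genotypes, had association values of 0.30 ± 0.19 and 0.20 ± 0.20 for Nab2 and of 0.08 ± 0.18 and -0.03 ± 0.20 for Atx2.

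The authors' deposited table of RIP as a fraction of Input listed 11 of the members among 5760 genes. Of these 11, only Obp19d had an overall p across genotypes below 0.05 in the authors' deposited table (0.016), where 5.42% of all listed genes did. The authors' deposited table gave Obp19d a ratio to control of 0.773 for Nab2 (Dunnett p = 0.0094) and of 0.874 for Atx2 (Dunnett p = 0.1239). These p-values are not adjusted over genes. The smallest Benjamini-Hochberg value over these overall p-values in the authors' deposited table was 0.288.

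Members below the filter were read as counts. Of the 12 with over 3 counts in some library, 8 reached 10 counts. Obp83ef, a gene with a doubled binding domain, had 0 to 20 counts, Obp99b, known from the male fat body, 0 to 12, Obp56h 0 to 13, Obp8a 0 to 10, Obp19b 0 to 10, Obp83g 0 to 10, Obp28a 0 to 12 and Obp56a 0 to 25. Obp56a, in the same cluster as Obp56d but with Obp56b and Obp56c between them, had 0, 1, 1 and 2 counts in control Input and 8, 9, 6 and 2 in Nab2 Input. A fit of all 12431 genes with a count gave it a log2 difference of 2.21 for Nab2 Input (edgeR adjusted p = 0.0393) and 1.64 for Nab2 RIP (edgeR adjusted p = 0.034). In the same fit Obp56h was higher in Nab2 RIP (1.58, edgeR adjusted p = 0.0493) and Obp83g in Atx2 RIP (2.50, edgeR adjusted p = 0.0114). Over all 12431 genes that fit called 466 higher in Nab2 Input, 755 in Nab2 RIP and 887 in Atx2 RIP. Obp28a, an abundant antennal protein, had 3, 12, 7 and 5 counts in Atx2 RIP and at most 3 in any library of the other groups, and was not called for Atx2 (edgeR adjusted p = 0.0651). Obp56c, named after its values were seen, had 2, 3, 7 and 7 counts in Atx2 RIP, 0 in all 4 control RIP libraries and 1 count in the 4 Nab2 RIP libraries together. It was called higher in Atx2 RIP than in control RIP (4.98, edgeR adjusted p = 0.00366), and lower in Nab2 than in Atx2 RIP (-3.43, edgeR adjusted p = 0.0269). These values rest on few counts, and fitted folds against a group at 0 depend on the prior count.

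In the Obp56 cluster Obp56d and Obp56e were higher in all 4 comparisons with control, as given above. Obp56g was called in Atx2 Input, Nab2 RIP and Atx2 RIP, the 3 groups in which it would have passed the filter alone, and these calls were lost under 11, 10 and 3 of 18 alternatives. The shares of all tested genes called higher were 7.35% and 8.91% in Input and 10.7% and 12.1% in RIP for Nab2 and Atx2. The shares called lower were 4.85% and 7.63% in Input and 9.29% and 12.1% in RIP. Within the cluster and 50 kilobases on either side, 145 other genes are annotated and 3 passed the filter on counts from these rRNA-depleted libraries. None of these 3 was called in any of the 4 comparisons with control by edgeR. However, snoRNA:185 was at 1.61 in Nab2 RIP (edgeR adjusted p = 0.0585) and 1.16 in Atx2 RIP (edgeR adjusted p = 0.145), and at 0.25 and 0.42 in Input. The values of hrg and Toll-7 lay between -0.37 and 0.23. The Obp99 cluster held 13 other tested genes, of which 3 were higher and 1 lower in Nab2 Input, and 1 higher and 1 lower in Atx2 Input. In RIP 1 was higher and 0 lower for each tagged genotype. Around Obp57, 1 of 5 was higher in Nab2 Input, Atx2 Input and Nab2 RIP, and 2 in Atx2 RIP. The 1 tested gene beside Obp83cd to Obp83g was higher in all 4 (log2 1.98 to 2.39). Around Obp19, 0 of 7 were called in Input, and 2 were lower in Nab2 RIP and 3 in Atx2 RIP.

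Other secreted proteins did not move in 1 direction. Of 34 genes listed (lush, a10, EbpIII, Phk-3, Os-C, the Npc2, CheA and CheB genes, and the secreted enzyme Est-6), 7 passed the filter. In Nab2 Input 2 were higher and 1 lower than in control, and in Atx2 Input 1 was higher and 3 lower. In RIP the counts were 2 higher and 2 lower for Nab2, with Est-6 among the higher (0.73 ± 0.14, edgeR adjusted p = 0.000244), and 1 higher and 3 lower for Atx2. Over all tested genes, the shares called higher and lower were 7.35% and 4.85% in Nab2 Input, and 8.91% and 7.63% in Atx2 Input. In RIP these shares were 10.7% and 9.29% for Nab2, and 12.1% and 12.1% for Atx2. EbpIII, an ejaculatory bulb protein related to chemosensory proteins, was 375 ± 82.6 CPM in control Input, 539 ± 47.3 in Nab2 Input and 504 ± 35.3 in Atx2 Input (log2 0.52, edgeR adjusted p = 0.00154, and 0.42, edgeR adjusted p = 0.00926). Npc2g, a secreted protein of the sterol-binding Niemann-Pick type C2 family, went the other way. It was 203 ± 24.6 CPM in control Input, 134 ± 9.67 in Nab2 Input and 64.9 ± 20.2 in Atx2 Input (-0.58, edgeR adjusted p = 0.00407, and -1.64, edgeR adjusted p = 6.53e-11).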

How the data were processed

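RNA from head Input and anti-FLAG RIP was sequenced after ribosomal RNA depletion with a stranded total RNA kit, per the labels' protocols. Reads were aligned with STAR 2.6.0b-1 to build BDGP6 and counted with featureCounts 1.6.3, and DESeq2 2.11.40.2 was used, per the submitters' processing notes. The annotation release and strand setting are not given in the sources used here. The authors deposited raw counts per gene, which were tested here. A table by the authors holds ratios of RIP to Input with p-values, and 24 other per-sample columns were not used.

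Genes were kept by filterByExpr (minimum count 10, total 15) over the 6 groups, and TMM-scaled. edgeR 4.0.16 (R 4.3.3, limma 3.58.1) quasi-likelihood tests were run on 12 comparisons, with Benjamini-Hochberg adjustment over 6147 genes. Input and RIP genotype fits used 12 libraries each, without a block. RIP-to-Input and association fits used 24 libraries with 1 term per lysate, because the labels tie RIP and Input to a lysate. Deviations of such pairs correlated with a median r of 0.182 over 2313 genes (range -0.066 to 0.460, with 10 of 12 pairs over 0.1). No 2 libraries of a group were alike within counting noise (chi-square over its degrees of freedom 1.39 to 6.54). Log2 ratios per lysate used a prior count of 2. DESeq2 1.42.0, other scalings, filters, blocks and left-out replicates were the alternatives. Scripts were tested on simulated data.

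Every member was accounted for, those past the filter with values and those reaching 10 counts by name, and other genes came from fixed lists. Members and lists were chosen with earlier results of these data known. Limits from counts of 0 (3 counts) cover counting error only. All 51 symbols matched a RefSeq gene of Release 6. No sequences were available for these genes here, so none are shown.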

Additional observations from a re-analysis of the deposited data

Results flagged for a closer look

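In 6 of 114 groups of 4 values, the highest or lowest library stood apart from the other 3 by Dixon's criterion, and chance alone gives about 5.7. Obp44a was 206 CPM in control RIP replicate 4, against 81.9 to 101 CPM in the other 3, and 183 CPM in Nab2 RIP replicate 3, against 125 to 129 CPM. Obp49a was 38.5 CPM in control RIP replicate 3, against 28.5 to 30.1 CPM. Obp57b was at 0 CPM in control RIP replicate 3, where 3 counts amount to 14.5 CPM, against 6.24 to 6.79 CPM. Obp99a was 58.6 CPM in Nab2 RIP replicate 3, against 21.7 to 26.6 CPM. The log2 RIP-to-Input ratio of Obp19d was 0.068 in Atx2 replicate 2, against 0.41 to 0.46. Of the 6, 4 lie in RIP replicate 3 of control or Nab2, the 2 shallowest libraries.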

How the results depend on the processing

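The 28 called member values were recomputed under 506 alternatives in all. In 430 the direction and call were the same, in 75 the call was lost and in 1 the direction reversed. The calls of Obp56d and Obp56e in all 4 comparisons with control, of Obp19d for Nab2 in Input and RIP, of Obp57c in Atx2 Input, Obp49a in Nab2 RIP, Obp99c in Atx2 RIP and Obp19d in control RIP against Input held under every alternative run. Among these genes Obp57c alone passed the filter in no control group by itself, so its call carries the limit given above. Counts of called members with all lysates were 4, 5 and 2 in Input (Nab2, Atx2, Nab2 against Atx2), 7, 6 and 1 in RIP, and 1 in each RIP-to-Input comparison. With library sizes alone they were 1 for Nab2 against Atx2 Input, 0 for Nab2 against Atx2 RIP and 4 in each of the 3 RIP-to-Input comparisons, whose medians over all genes moved to 0.39, 0.37 and 0.37. With that scaling Obp56d in Nab2 RIP against Input went from -0.03 to 0.36 (edgeR adjusted p = 0.0199) and Obp99c from -0.34 to 0.037. The summed Obp level was then 784 CPM in control Input, 1200 in Nab2 Input, 1084 in Atx2 Input, 1582 in Nab2 RIP and 1404 in Atx2 RIP. DESeq2 gave 0 for both comparisons between tagged genotypes and 0 for Nab2 RIP against Input, its size factors in edgeR gave 2 for the last, and no filter gave 2 for Nab2 against Atx2 RIP. Without the 2 lysates of the shallowest libraries, an alternative chosen after seeing the data, Nab2 RIP against Input gave 0. Leaving out 1 replicate at a time gave 3 to 5 for Nab2 and 3 to 5 for Atx2 Input, 0 to 2 between them, 5 to 8 and 4 to 7 in RIP, 0 to 2 between them, 1 to 1, 0 to 2 and 0 to 3 for RIP against Input (control, Nab2, Atx2), and 0 to 0 for the 3 associations. Obp44a in Nab2 RIP, at -0.00 with all lysates, was 0.47 without control replicate 4 (edgeR adjusted p = 0.0112) and -0.13 without control replicate 2. The cause of these changes was not tested.

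Replicate numbers were not taken to pair the genotypes, because the labels do not say so and not every pair correlated: deviations of same-numbered libraries correlated with a median r of 0.128 in Input (7 of 12 pairs over 0.1) and 0.0720 in RIP (4 of 12). In each fraction 13 of 24 comparisons of a library with another genotype had the highest r at its own number. This is more often than an even choice among the 4 numbers gives, so the numbers may carry some pairing that the unblocked fits do not use. The RIP and Input pairs of a lysate, with 10 of 12 over 0.1, were blocked because the labels tie them. With a replicate block, the genotype comparisons gave 5, 6 and 3 member calls in Input and 6, 6 and 1 in RIP, and over all genes 870, 1176 and 413 in Input (750, 1017 and 262 without). It brought past the threshold Obp19d in Atx2 Input (edgeR adjusted p = 0.0344) and Obp99a in Nab2 Input (edgeR adjusted p = 0.0467) and between Nab2 and Atx2 Input (edgeR adjusted p = 0.0343), and Obp56g in Nab2 RIP was no longer called (edgeR adjusted p = 0.0788). Without the replicate block of lysates, RIP against Input gave 1, 0 and 0 calls, and with a block of numbers within RIP 1, 2 and 3. All associations stayed at 0.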
